A study of Mus musculus with 2 samples.

Results

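The pigment synthesis genes considered here are 10 genes by name: Mitf, Pmel, Tyr, Tyrp1, Dct, Trpm1, Slc45a2, Oca2, Mlana and Slc24a5. All 10 matched a single row each among the 43346 annotated genes of the deposited tables. Total RNA (10 ng per library) was sequenced from pooled whole forebrains of strain B6NCrl embryos at 10.5 days, in 2 libraries of a single group. The pool of replicate 1 held 69 embryos and that of replicate 2 held 51, of mixed sex, with no treatment or mutation labelled. The members were named with their difference between the 2 libraries already known, so that difference is given below as a description and not as a test. The tables held 43021202 expected counts (estimated reads) in replicate 1 and 39215064 in replicate 2.

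Melanin is made inside melanosomes, organelles related to lysosomes. In the vertebrate embryo 2 separate lineages make it: the pigment epithelium of the retina, which forms from the outer layer of the optic cup as an outgrowth of the forebrain wall, and melanocytes, which come from migrating neural crest. In the mouse the pigment epithelium is the first tissue to become pigmented. The transcription factor Mitf switches on the melanosome scaffold, the melanin enzymes and several melanosomal transporters in both lineages, from promoters that differ between them. The sources used here do not say whether the eye rudiments were kept in the dissected forebrains. The telencephalic genes fixed as markers of the labelled tissue were at 1 TPM or more in both libraries for all 10 of 10, beside 32.4% of all annotated genes. TPM is a share of all transcripts, adjusted for transcript length.

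Of the 10 pigment genes 8 averaged at least 10 counts over the libraries, beside 39.6% of all annotated genes. At 1 TPM or more in both libraries, 5 of the 10 pigment genes were detected, which is read against 32.4% of all annotated genes. Taken alone, replicate 1 had 5 of them at that level and replicate 2 had 7. Summed over the 10 genes, the level was 22.36 TPM in replicate 1 and 54.02 TPM in replicate 2. In RNA of whole pools, fewer cells of a type and less RNA per cell cannot be told apart. Pmel and Trpm1 together made up 51.2% of that sum in replicate 1 and 69.2% in replicate 2. In the order of mean level, Pmel came first, followed by Trpm1, Dct, Slc24a5, Mitf, Tyrp1, Tyr, Oca2, Mlana and Slc45a2. The gap from Pmel to Trpm1 (0.19 ± 0.20 on the log2 scale of TPM, mean ± SD, n = 2) did not exceed the spread between libraries, nor did that from Tyrp1 to Tyr (0.28 ± 0.33) or from Tyr to Oca2 (0.07 ± 0.65). The other 6 gaps between neighbours exceeded 1 SD, from 0.50 ± 0.07 between Dct and Slc24a5 to 1.56 ± 0.60 between Oca2 and Mlana.

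**Figure D1:**
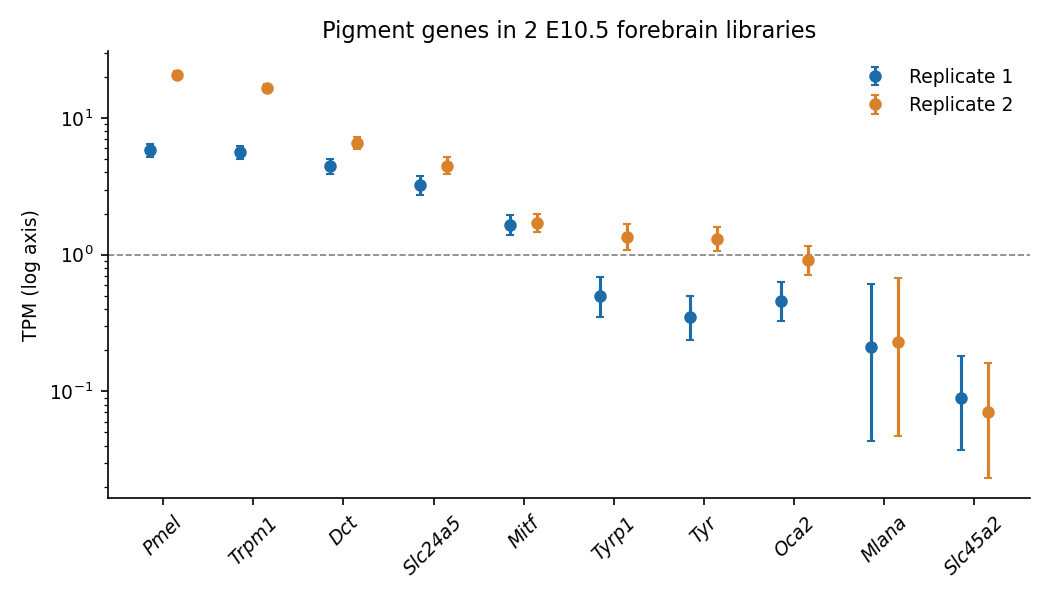
Level in TPM (log axis) of each pigment gene in replicate 1 and replicate 2, ordered by mean level; bars are 95% exact Poisson intervals of the count behind each value and cover counting error only, and the dashed line marks 1 TPM. Pmel stood at 5.82 TPM in replicate 1 and 20.8 TPM in replicate 2, while Mitf stood at 1.65 and 1.71 TPM.

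Pmel (ENSMUSG00000025359.9) encodes the protein that forms the amyloid fibrils on which melanin is laid down in early melanosomes, and lies on chromosome 10 from 128704195 to 128720238 (GRCm38, plus strand). It had 327 counts and 5.82 TPM in replicate 1, against 1054 counts and 20.8 TPM in replicate 2. After scaling for library size by TMM (trimmed mean of M values), Pmel in replicate 1 was 0.282 times its level in replicate 2, with a 95% counting interval of 0.248 to 0.319, or 3.54-fold lower. Of the exonic bases of Pmel, 105 of 2292 also belong to the opposite-strand gene Dgka and 34 to Cdk2. The sources used here do not say whether counting used strand, so the count is uncertain to that extent. Those neighbours stood at ratios of 1.04 (0.850 to 1.27) for Dgka and 0.991 (0.955 to 1.03) for Cdk2, so neither shared the difference of Pmel.

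Mlana (ENSMUSG00000024806.3), on chromosome 19 from 29697824 to 29708634 (plus strand), encodes a small melanosomal membrane protein that binds the Pmel product. It had 3 counts in each library, equal to 0.21 TPM in replicate 1 and 0.23 TPM in replicate 2. With so few counts the ratio of 0.909 had an interval of 0.122 to 6.78, and no difference of the size seen for Pmel was detectable at this depth.

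The tyrosinase family supplies the melanin enzymes. Tyr (ENSMUSG00000004651.5), on chromosome 7 from 87424771 to 87493512 (minus strand), encodes tyrosinase, the rate-limiting enzyme that oxidises tyrosine and DOPA. It had 31 counts and 0.35 TPM in replicate 1, against 105 counts and 1.31 TPM in replicate 2. Its ratio of 0.271 (0.174 to 0.404) was the lowest of the 8 pigment genes averaging at least 10 counts. Tyrp1 (ENSMUSG00000005994.10), on chromosome 4 from 80834123 to 80851719 (plus strand), encodes a related melanosomal enzyme that acts late in eumelanin synthesis in the mouse. It had 36 counts and 0.50 TPM in replicate 1, against 86 counts and 1.35 TPM in replicate 2, a ratio of 0.383 (0.250 to 0.567). Its leading transcript differed, with ENSMUST00000006151.8 at 100% of Tyrp1 TPM in replicate 1 and 24.5% in replicate 2, on these few counts. Tyr and Tyrp1 stood under 1 TPM in replicate 1 and over it in replicate 2.

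Dct (ENSMUSG00000022129.3), on chromosome 14 from 118012790 to 118052244 (minus strand), encodes dopachrome tautomerase, the third enzyme of the family. In mouse embryos Dct is also known to be transcribed in the telencephalon outside the pigment lineages. It had 265 counts and 4.43 TPM in replicate 1, against 355 counts and 6.58 TPM in replicate 2. The ratio was 0.679 (0.576 to 0.797), an interval that lay wholly above those of Tyr and Tyrp1. Within a library, Tyr stood at 0.0790 times the TPM of Dct in replicate 1 and at 0.199 times in replicate 2, whereas Tyr to Tyrp1 was 0.700 in replicate 1 and 0.970 in replicate 2.

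Trpm1 (ENSMUSG00000030523.14), on chromosome 7 from 64153835 to 64269775 (plus strand), encodes a cation channel of melanocytes and of retinal bipolar cells, and its intron holds a microRNA gene. It had 362 counts and 5.62 TPM in replicate 1, against 950 counts and 16.57 TPM in replicate 2, a ratio of 0.347 (0.306 to 0.391). Pmel and Trpm1, the 2 most abundant members, thus differed most in absolute level. Of its 22 quantified transcripts, the 3 over 5000 bases held 2.49% of Trpm1 TPM in replicate 1 and 1.70% in replicate 2. The 19 shorter transcripts, of 3100 bases or less, held 97.5% in replicate 1 and 98.3% in replicate 2. These shares are the authors' estimates from reads that transcripts of Trpm1 have in common.

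The other transporters were lower. Oca2 (ENSMUSG00000030450.7), on chromosome 7 from 56239760 to 56536518 (plus strand), encodes a melanosomal anion channel that sets the pH of the organelle. It had 39 counts and 0.46 TPM in replicate 1, against 69 counts and 0.91 TPM in replicate 2, a ratio of 0.516 (0.338 to 0.771) that lay just inside a 2-fold difference. Slc45a2 (ENSMUSG00000022243.10), on chromosome 15 from 11000721 to 11029233 (plus strand), encodes a melanosomal transporter mutated in human albinism. It had 7.43 counts (0.09 TPM) in replicate 1 and 5.13 counts (0.07 TPM) in replicate 2, with a ratio of 1.28 (0.348 to 5.08), too few counts to place.

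Slc24a5 (ENSMUSG00000035183.10), on chromosome 2 from 125068124 to 125088677 (plus strand), encodes a potassium-dependent sodium and calcium exchanger of the pigment pathway. It had 165.71 counts and 3.23 TPM in replicate 1, against 202.23 counts and 4.49 TPM in replicate 2, a ratio of 0.745 (0.604 to 0.921). Of its 2330 exonic bases, 921 (39.5%) also belong to the opposite-strand gene Myef2, so its count is uncertain. Myef2 is much more abundant, at 137.0 TPM in replicate 1 and 143.4 TPM in replicate 2, and its ratio was 0.956 (0.931 to 0.983).

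Promoter sequences from RefSeq (build GRCm38.p6), running from 250 bases before to 50 after a gene's start, were found for 7 of the 10 genes. They are shown as a description of the members. None was found for Pmel, Slc45a2 and Mlana. The letters searched were TCATGTG, the form of the E box known as the M box to which Mitf binds, on both strands (CACATGA on the other). This motif contains CATGTG, so every TCATGTG match is also a CATGTG match. The 7 genes have 10 promoters, 3 of them of Mitf and 2 of Trpm1. TCATGTG occurred in 5 of these 10 promoters, each of a different gene, and in 3.77% of all 32851 promoters of the same length. The shorter CATGTG occurred in 7 of the 10 promoters, adding Oca2 and the other Trpm1 promoter, and in 14.2% of all promoters. A match is a description and shows no binding. Capitals mark TCATGTG or CACATGA. The first 3 sequences belong to genes more than 2-fold apart between the libraries, and the last 2 to genes that were not.
Tyr, chr7:87493463-87493762, minus strand: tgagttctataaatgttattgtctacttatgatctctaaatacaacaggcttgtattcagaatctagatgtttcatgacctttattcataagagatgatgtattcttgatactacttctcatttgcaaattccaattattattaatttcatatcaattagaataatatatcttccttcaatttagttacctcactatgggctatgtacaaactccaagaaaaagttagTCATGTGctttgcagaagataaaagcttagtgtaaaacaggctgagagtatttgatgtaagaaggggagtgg
Tyrp1, chr4:80833963-80834262, plus strand: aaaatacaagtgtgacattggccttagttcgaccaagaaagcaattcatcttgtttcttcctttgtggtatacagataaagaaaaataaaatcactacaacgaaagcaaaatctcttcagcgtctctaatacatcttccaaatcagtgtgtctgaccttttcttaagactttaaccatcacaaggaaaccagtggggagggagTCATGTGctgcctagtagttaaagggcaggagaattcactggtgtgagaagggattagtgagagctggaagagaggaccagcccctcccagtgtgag
Trpm1, chr7:64153585-64153884, plus strand: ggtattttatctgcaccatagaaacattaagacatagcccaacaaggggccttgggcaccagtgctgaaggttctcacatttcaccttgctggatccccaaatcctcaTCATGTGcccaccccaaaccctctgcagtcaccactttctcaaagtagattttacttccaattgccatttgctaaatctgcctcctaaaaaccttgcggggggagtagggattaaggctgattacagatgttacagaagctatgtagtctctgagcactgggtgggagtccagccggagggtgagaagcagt
Dct, chr14:118052197-118052496, minus strand: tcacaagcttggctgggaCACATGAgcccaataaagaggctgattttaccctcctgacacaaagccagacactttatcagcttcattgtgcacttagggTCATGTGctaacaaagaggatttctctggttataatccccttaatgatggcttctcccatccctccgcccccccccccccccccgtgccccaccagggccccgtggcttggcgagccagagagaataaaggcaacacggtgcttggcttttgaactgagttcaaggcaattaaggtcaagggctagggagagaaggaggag
Slc24a5, chr2:125067877-125068176, plus strand: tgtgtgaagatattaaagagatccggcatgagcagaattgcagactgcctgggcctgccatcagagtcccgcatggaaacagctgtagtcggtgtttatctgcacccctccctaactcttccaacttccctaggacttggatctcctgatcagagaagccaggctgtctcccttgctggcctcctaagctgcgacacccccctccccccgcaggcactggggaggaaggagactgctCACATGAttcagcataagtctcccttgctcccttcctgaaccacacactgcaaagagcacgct

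Counted in bases from the start, with negative positions before it, the match began at -22 in Tyr, -47 in Tyrp1, -142 in Trpm1 and -13 in Slc24a5, and Dct had 2 matches, at -232 and -151. Of the genes with a promoter here, Tyr, Tyrp1 and Trpm1, more than 2-fold apart between the libraries, all carried the motif. For Trpm1 it lay only in the window from 64153585. The transcript placed at that window, ENSMUST00000085222.7, had 0 counts in both libraries. ENSMUST00000177102.4, placed at the other window, had 28.05 counts in replicate 1 and 4.11 in replicate 2. The Trpm1 transcript with most counts, ENSMUST00000032737.7, could not be placed, so which window Trpm1 used is not known. Of those within 2-fold, Dct and Slc24a5 carried it, and it was not found in the windows of Oca2 and Mitf. The genes are split here on ratios known when the members were chosen, and Pmel has no promoter here. The split is a description, and a link between motif and difference was not tested.

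Mitf (ENSMUSG00000035158.11), on chromosome 6 from 97807052 to 98021349 (plus strand), encodes the basic helix-loop-helix leucine zipper factor that governs the pigment lineages. It had 143 counts and 1.65 TPM in replicate 1, against 180 counts and 1.71 TPM in replicate 2. By counts its ratio was 0.722 (0.575 to 0.904), a log2 ratio of -0.47, but on the TPM scale the libraries were nearly level at -0.05. The 2 scales differ because the authors' estimated mean effective length of Mitf was 3133 bases in replicate 1 and 4209 bases in replicate 2.

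Several promoters spread over 184.7 kilobases drive Mitf in different cells. In the mouse the M start, nearest the shared exons, is the one melanocytes use, while the pigment epithelium draws mainly on starts further upstream. First exons were placed from GENCODE M21 on GRCm38 (mm10), in which the 6 positioned transcripts have the same lengths as in the deposited tables. Transcripts from the most upstream start (position 97807058) held 68.7% of Mitf TPM in replicate 1 and 100% in replicate 2, with 114.44 counts in replicate 1 and 180 in replicate 2. Among them ENSMUST00000043637.9 held 46.6% in replicate 1 and 83.7% in replicate 2, and ENSMUST00000148233.1, annotated as a retained intron, held 22.2% in replicate 1 and 16.3% in replicate 2. The 2 middle starts, ENSMUST00000101123.5 at 97929799 and ENSMUST00000113339.3 at 97940918, were estimated at 12.6% each in replicate 1 and at 0 in replicate 2.

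Transcripts from the M start held 6.03% of Mitf TPM in replicate 1, all in ENSMUST00000043628.8 (start 97991792), and 0 in replicate 2. In counts this was 5 of 143 in replicate 1 (3.50%, exact binomial 95% interval 1.14 to 7.97%) and 0 of 180 in replicate 2 (exact upper bound 2.03%), where 3 counts, the limit set for a count of 0, would be a share of 1.67%. Averaged over the libraries, 3.02% ± 4.26 (SD, n = 2) of Mitf TPM fell to the M start, with an SD larger than the mean. Assignment between starts is weak: ENSMUST00000043637.9 holds 2642 of its 4881 bases (54.1%) in a 3′ stretch that no other quantified Mitf transcript has. Reads there count for that transcript without reaching its first exon, so the shares do not measure promoter use directly. The RefSeq windows of the most upstream start and of the M start are printed to show the 2 ends of this range, with the cyclic AMP response element TGACGTCA (its own reverse complement, found in 1.79% of all promoters) in capitals. It began at -153 from the M start and was not found in the most upstream window, and neither window held CATGTG.
Mitf most upstream start, chr6:97806808-97807107, plus strand: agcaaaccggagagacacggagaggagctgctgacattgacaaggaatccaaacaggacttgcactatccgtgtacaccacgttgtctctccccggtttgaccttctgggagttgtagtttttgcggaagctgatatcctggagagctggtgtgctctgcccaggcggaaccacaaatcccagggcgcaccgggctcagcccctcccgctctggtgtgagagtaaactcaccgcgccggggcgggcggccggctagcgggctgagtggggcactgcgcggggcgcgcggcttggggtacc
Mitf M start, chr6:97991533-97991832, plus strand: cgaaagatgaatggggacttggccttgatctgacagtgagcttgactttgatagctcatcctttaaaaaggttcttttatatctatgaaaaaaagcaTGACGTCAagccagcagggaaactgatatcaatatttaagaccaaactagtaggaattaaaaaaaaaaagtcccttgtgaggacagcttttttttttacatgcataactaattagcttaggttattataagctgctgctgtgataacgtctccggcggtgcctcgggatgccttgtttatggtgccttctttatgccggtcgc

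**Figure D2:**
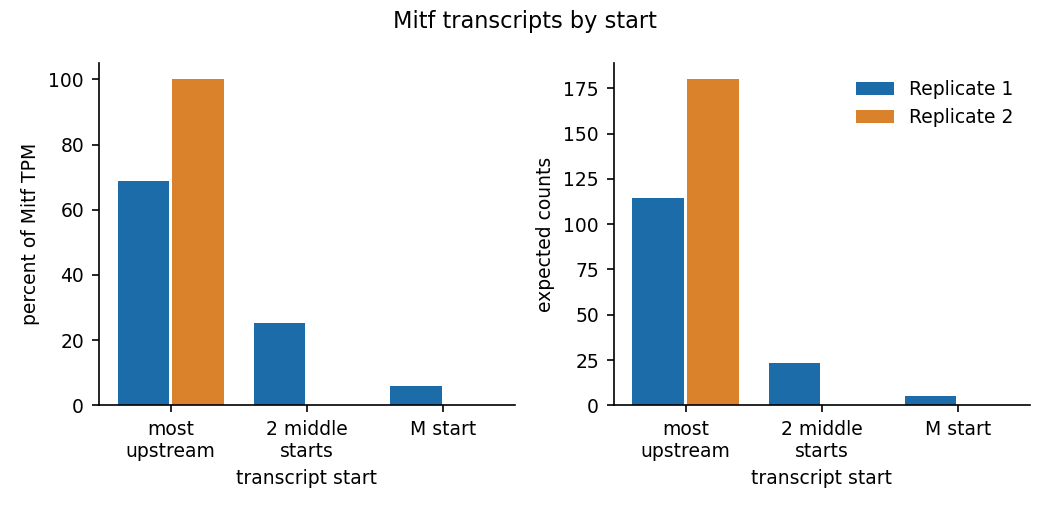
Mitf transcripts grouped by start, as percent of Mitf TPM (left) and expected counts (right), with bars for replicate 1 and replicate 2. The most upstream start held 68.7% in replicate 1 and 100% in replicate 2, and the M start held 5.02 counts in replicate 1 and none in replicate 2.

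Between the libraries, all 8 pigment genes averaging at least 10 counts were lower in replicate 1, beside 50% of all 17174 genes with as many counts. The genes Tyr, Pmel, Trpm1 and Tyrp1 were more than 2-fold lower in replicate 1, 4 of the 8, set beside 1.14% of all genes past that fold in this direction and 3.26% in either direction. All 8 averaged at least 50 counts, and among the 13842 such genes 0.238% were more than 2-fold lower in replicate 1 and 0.585% past that fold in either direction. The median log2 ratio of the 8 was -1.17, a level 2.25-fold lower in replicate 1, and that of the 13842 genes was -0.0042. Because the members were chosen with these ratios known, these shares describe the genes and support nothing further.

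From the lowest ratio upward among the 13842 genes, Tyr ranked 6, Pmel 7, Trpm1 8, Tyrp1 13 and Oca2 36, while Dct ranked 144, Mitf 245 and Slc24a5 312. The counting intervals of Tyr, Pmel, Trpm1 and Tyrp1 did not overlap those of Dct, Mitf and Slc24a5, with a closest approach of 0.567 (upper bound, Tyrp1) to 0.575 (lower bound, Mitf). Oca2 overlapped both sets. The sets were split on these same ratios, so their separation is a description and not a test. These intervals cover counting error only and leave out the variation between pools.

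**Figure D3:**
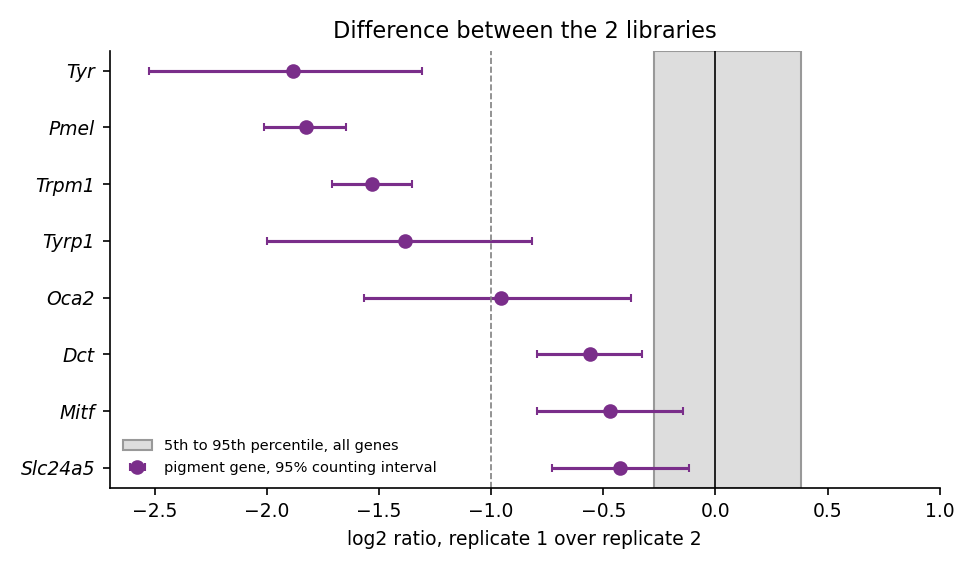
log2 ratio of replicate 1 over replicate 2 for the 8 pigment genes averaging at least 10 counts, with 95% exact binomial counting intervals; the band spans the 5th to 95th percentile of all genes averaging at least 50 counts, and the dashed line marks a 2-fold difference. Tyr at -1.88 and Pmel at -1.83 lie farthest left, and Slc24a5 at -0.42 lies nearest 0.

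**Figure D4:**
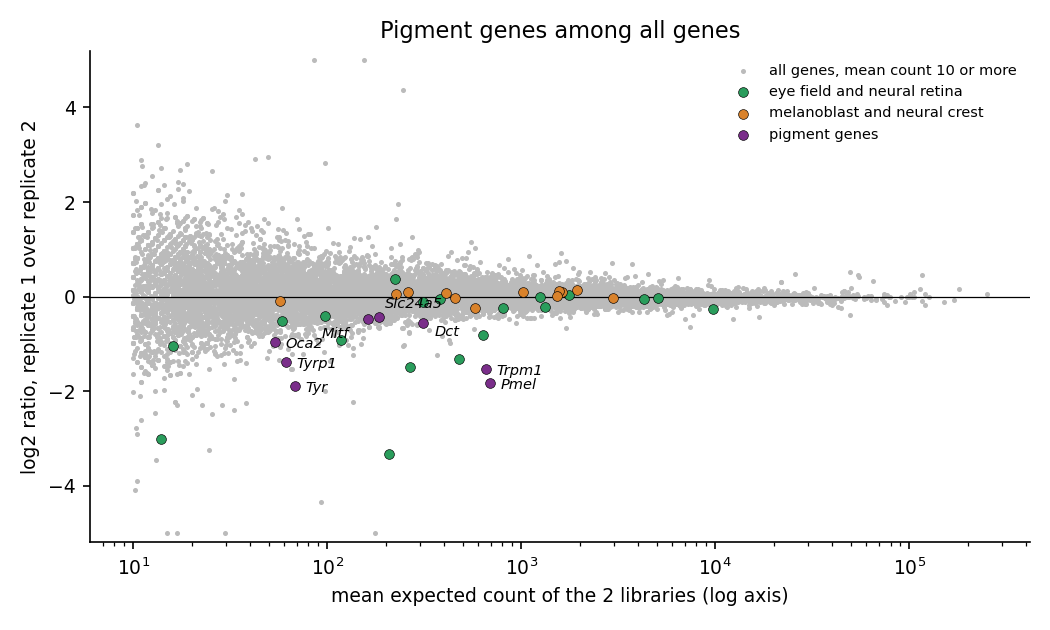
log2 ratio of replicate 1 over replicate 2 against the mean expected count (log axis) for every gene averaging at least 10 counts, with pigment genes, eye field genes and melanoblast genes coloured; genes beyond 5 on either side are drawn at the edge. Pmel and Trpm1 lie well below the cloud at mean counts of 691 and 656, while Mitf, Dct and Slc24a5 lie near its lower border.

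Levels were also set against each other within a library. Rax, a homeobox factor of the eye field, was itself lower in replicate 1 (3.47 TPM in replicate 1 and 9.79 TPM in replicate 2). Against Rax, Pmel had a TPM ratio of 1.68 in replicate 1 and 2.12 in replicate 2. Tyr had a ratio to Rax of 0.101 in replicate 1 and 0.134 in replicate 2. Dct stood at 1.28 times Rax in replicate 1 and 0.672 times in replicate 2. Mitf stood at 0.476 times Rax in replicate 1 and 0.175 times in replicate 2. Pmel exceeded Mitf 3.53-fold in replicate 1 and 12.2-fold in replicate 2. Pmel exceeded Dct 1.31-fold in replicate 1 and 3.16-fold in replicate 2. Relative to Mitf and to Dct, Pmel was thus lower in replicate 1. Ratios to Mitf carry the difference in its estimated effective length between the libraries. They also depend on the estimate: in posterior mean TPM, also deposited, Pmel was below Mitf in both libraries. Pmel had 5.72 in replicate 1 and 20.35 in replicate 2, and Mitf had 19.5 and 21.6, most of it in a transcript with 0 expected counts. All these ratios follow from the levels of the same genes in the same libraries. The members were chosen with those differences known, so the ratios are a description and add no support.

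Mitf belongs to the MiT family with Tfe3, Tfeb and Tfec, whose products bind the same DNA element. Tfe3 was the most abundant, at 21.34 TPM in replicate 1 and 25 TPM in replicate 2, which was 12.9 times Mitf in replicate 1 and 14.6 times in replicate 2. Both ratios rest on the same TPM estimate of Mitf. Tfeb had 1.82 TPM in replicate 1 and 1.66 TPM in replicate 2. Tfec, known in the mouse from the pigment epithelium, had 0.75 TPM in replicate 1 and 1.22 TPM in replicate 2, a ratio of 0.626 (0.394 to 0.978). None of the 4 family genes was more than 2-fold apart between the libraries, beside 3.26% of all genes.

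Genes of melanosome building and transport did not share the difference as a list. Of 35 listed genes 34 matched and 33 averaged at least 10 counts, with a median log2 ratio of 0.01. Of these 33, 16 were lower in replicate 1, near the 50% of all genes. The most abundant were Cd63 at 185.4 ± 5.57 TPM, the sorting-complex subunit Bloc1s1 at 146.1 ± 6.80, Bloc1s2 at 79.6 ± 0.52, Dtnbp1 at 66.8 ± 2.91 and Bloc1s6 at 61.2 ± 2.51 (SD, n = 2). These serve lysosome-related organelles and endosomes in many cells. Gpnmb, a relative of Pmel that is made in pigment cells and macrophages, was the only gene of the 33 past 2-fold, a share near the 3.26% of all genes, with 0.61 TPM in replicate 1 and 1.58 TPM in replicate 2 (ratio 0.388, 0.282 to 0.523). Gpr143, the ocular albinism receptor of melanosomes, had 11 counts in replicate 1 and 15 in replicate 2, with a ratio of 0.674 (0.277 to 1.55).

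Markers of the cell types that could carry the pigment genes were compared in the same way. Of 20 eye field and neural retina genes, 19 averaged at least 10 counts, 17 of these were lower in replicate 1 (50% of all genes were), and 5, beside 1.14% of all genes, were more than 2-fold lower: Aldh1a1, Tbx5, Rax, Six6 and Vax1, the last on 11 counts in replicate 1 and 21 in replicate 2 with an interval that reached a ratio of 1.03. Aldh1a1, a retinaldehyde dehydrogenase of the dorsal retina in the mouse, had 0.76 TPM in replicate 1 and 7.75 TPM in replicate 2, 10.04-fold lower in replicate 1 (7.34 to 14.4). Six6 had 2.71 TPM in replicate 1 and 6.85 TPM in replicate 2 (ratio 0.399, 0.346 to 0.458). Members of that list that other forebrain cells also express had ratios nearer 1, such as 0.971 (0.931 to 1.01) for Pax6, 0.986 (0.948 to 1.03) for Lhx2, 0.844 (0.765 to 0.932) for Six3, 0.861 (0.797 to 0.929) for Hes1 and 0.829 (0.806 to 0.853) for Sfrp1. The intervals of Six3, Hes1 and Sfrp1 lay below 1. The summed level of the 20 genes was 357.0 TPM in replicate 1 and 418.2 TPM in replicate 2, with a median log2 ratio of -0.27.

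Melanoblast and neural crest genes gave ratios close to 1. Of 15 listed genes 12 averaged at least 10 counts, none was more than 2-fold apart, near the 3.26% of all genes past that fold, and the median log2 ratio was 0.06, with single genes from -0.24 to 0.14. Sox10, the neural crest factor that activates the M promoter, had 0.80 TPM in replicate 1 and 0.86 TPM in replicate 2. Kit, the receptor melanoblasts need for survival, had 15.31 TPM in replicate 1 and 15.05 TPM in replicate 2, and Ednrb had 16.76 TPM in replicate 1 and 15.74 TPM in replicate 2, both also known from other embryonic cells. Mc1r had 4.83 counts in replicate 1 and 5.98 in replicate 2. The list summed to 135.2 TPM in replicate 1 and 133.8 TPM in replicate 2.

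Genes listed for the pigment epithelium, without the members, were mixed. Of 19 genes 16 averaged at least 10 counts. Of these, 7 were lower in replicate 1, beside 50% of all genes, and the median log2 ratio was 0.05. Tfec and Gpr143, given above, were among the 7. The most abundant of the list were Crabp1 at 956.2 ± 75.5 TPM, Serpinf1 at 90.2 ± 1.29, Otx2 at 52.4 ± 5.12 and Otx1 at 36.2 ± 3.92 (SD, n = 2). Whether such genes mark the pigment epithelium in these libraries was not tested, so the median may not describe that tissue. Otx2, which acts with Mitf in the pigment epithelium and is also made across the forebrain, had 56.01 TPM in replicate 1 and 48.77 TPM in replicate 2. Rlbp1, a retinaldehyde carrier of pigment epithelium and glia, had 0.98 TPM in replicate 1 and 1.53 TPM in replicate 2 (ratio 0.657, 0.458 to 0.933). Rpe65, the visual cycle isomerase, had 0 counts in both libraries, and Lrat had 0 in replicate 1 and 3 in replicate 2. The 2 genes past 2-fold, Slc6a20a and Ttr, were higher in replicate 1, beside 2.12% of all genes past that fold in this direction. Slc6a20a had 0.67 TPM in replicate 1 and 0.16 TPM in replicate 2. Ttr had 0.52 TPM in replicate 1 and 0.21 TPM in replicate 2, with an interval of its ratio from 0.901 to 7.56. Among 15 genes known to regulate Mitf, such as Otx2, Pax6, Pax3, Sox10 and Lef1, none was more than 2-fold apart, near the 3.26% of all genes, with log2 ratios from -0.23 to 0.25.

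Other measures moved between the same 2 libraries. All 8 erythroid genes were higher in replicate 1, with log2 ratios from 0.28 to 0.51, while 50% of all genes were lower in it. Spike-ins took 7.83% of TPM in replicate 1 and 7.01% in replicate 2. The part of the eye field genes, of red cell content or of any step of library making in the difference of the pigment genes was not tested.

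**Figure D5:**
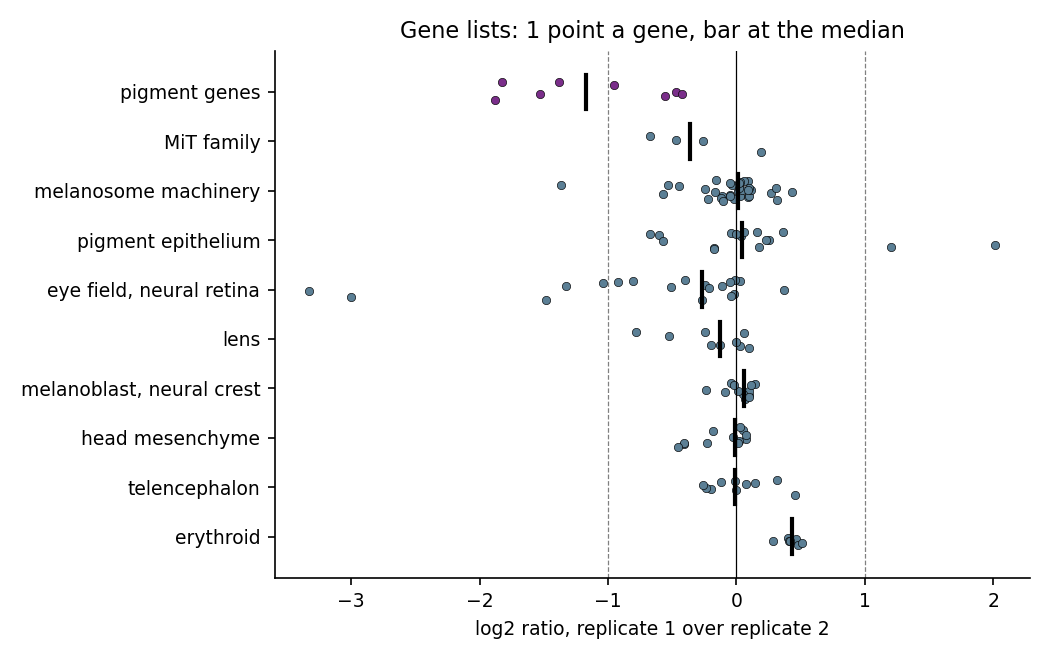
log2 ratio of replicate 1 over replicate 2 for genes averaging at least 10 counts in each list, with a point a gene and a bar at the list median; dashed lines mark 2-fold. The pigment genes have a median of -1.17 and the eye field genes one of -0.27 with a tail to -3.33, while the melanoblast genes lie between -0.24 and 0.14.

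Over these 2 libraries, the non-member genes averaging at least 50 counts whose log2 ratio was nearest the members' median were Hspa1a, Slc8a1, Rdh12, A730049H05Rik, Cplx3, Tom1, Nkx6-2, Slc7a8, Sowaha and Gm20482, with ratios from 0.424 (Nkx6-2) to 0.482 (Gm20482), each within 0.12 of the median on the log2 scale. With 2 samples this likeness is a single number per gene. Among genes averaging at least 50 counts, the 10 non-members lowest in replicate 1 included Aldh1a1, Slc38a8 (ratio 0.212, 0.152 to 0.287), Aldh1a7 (0.252, 0.173 to 0.353), Esm1 (0.347, 0.228 to 0.510), Rax (0.358, 0.295 to 0.434), Slc4a5 (0.377, 0.245 to 0.561) and Gpnmb. The other 3, Gm14440, Zfp965 and Gm7332, are uncertain wherever the counting divided reads among near-identical copies. Gm14440 had 0 counts in replicate 1 and 353.18 in replicate 2.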

How the data were processed

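Total RNA of pooled E10.5 mouse forebrains was measured in 2 libraries, labelled biological replicates 1 and 2 of a single group. The deposited notes give assembly mm10 and annotation M4. The sources used here do not give the aligner, the quantification tool or the strand setting. The authors deposited, per library, expected counts (estimated reads, not normalized, per the file headers), TPM, FPKM, and each transcript's percent of its gene. The deposited TPM bounds, a signal value, are not printed: they belong to the posterior mean estimate and miss the TPM of Trpm1 and Oca2 in both libraries and of Mitf in replicate 2 (for Trpm1 in replicate 1 they span 6.30 to 12.3 TPM, against a TPM of 5.62).

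Ratios used expected counts plus 0.5 over library sizes scaled by TMM from rounded counts (edgeR 4.0.16, R 4.3.3), with 95% exact binomial intervals of the 2 counts. Intervals and the limit of 3 counts for a count of 0 cover counting error only. No test between conditions exists in this design, so p-values are not given. The ratio step was tested on simulated data, where 100% of genes changed 3-fold in either direction and 0.98% of unchanged genes were past 2-fold. In the real libraries 3.26% of all genes were past it, so the simulated spread was narrower. Only genes with higher counts than Tyr, Tyrp1 and Oca2 were changed, so genes with as few counts were not covered. Alternatives changed scaling (DESeq2 1.42.0 size factors among them), quantity, filter, added count and threshold. Python 3.11.15, numpy 2.4.6, pandas 2.3.3, scipy 1.17.1 and matplotlib 3.10.9 were used. Symbols matched 42462 of 43346 annotated identifiers; 26248 rows with a bare number and 97 spike-in rows entered no ratio.

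The members and lists were chosen with earlier results of these data known. Named genes are the 10 members; up to 5 most abundant, up to 3 past 2-fold and undetected genes of each list; fixed lineage markers; Mitf transcripts at 5% or more; the 10 non-members nearest the members' median ratio; and the 10 lowest in replicate 1. Some of these genes are not reported here. Other genes (overlapping neighbours, Rlbp1, Lrat, Six3, Hes1 and Sfrp1) and the transcripts of Trpm1 and Tyrp1 were chosen after their values were seen.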

Additional observations from a re-analysis of the deposited data

How the results depend on the processing

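No paired analysis was possible because both libraries belong to a single group. The 4 genes over 2-fold apart (Tyr, Pmel, Trpm1 and Tyrp1) were past that fold under each of 6 alternatives of scaling, quantity or added count. These were not 6 separate checks. Posterior mean counts gave the 4 genes the same ratios as the main setting. Library size alone and DESeq2 size factors put the median of all genes at only 0.0103 and -0.0002 on the log2 scale. The number of pigment genes past the threshold was 4 to 5 over all alternatives. It was 5 at a 1.5-fold threshold and with spike-in scaling (Oca2 added), which shifted the median of all genes to -0.16 on the log2 scale. The median log2 ratio of -1.17 was -0.76 with no filter on low counts, which brings in Mlana and Slc45a2 with few counts. With 5 counts in both libraries in place of 1 TPM, 9 pigment genes were detected, and leaving out a library gave 5 to 7. The log2 ratio of summed TPM of -1.27 was -1.01 without Pmel and -0.61 without Pmel and Trpm1 (the last added after seeing the data). With posterior mean TPM it was -0.82, since that estimate gives Mitf 19.5 TPM in replicate 1 and 21.6 TPM in replicate 2, nearly all in a transcript of 101 bases with 0 expected counts; without Mitf it was -1.19. Posterior mean TPM also moved the mean level of Oca2 to 1.18 TPM (0.685 as reported), of Mlana to 0.285 (0.22) and of Slc45a2 to 0.105 (0.08). The Mitf M share of 3.02% was 13.7% as posterior mean percent over transcripts with a position, an alternative added after seeing the data, and 0 to 6.03% when a library was left out. The median ratio, summed ratio and 2-fold count need both libraries. Mlana, Slc45a2 and the Mitf starts are limited by depth.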

Other observations

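Of 13 lens genes 9 averaged at least 10 counts. None of these 9 was more than 2-fold apart between the libraries, near the 3.26% of all genes past that fold. Their median log2 ratio of replicate 1 over replicate 2 was -0.13. Cryab, a small heat shock protein of lens and muscle, had 2 TPM in replicate 1 and 3.47 TPM in replicate 2, a ratio of 0.582 (0.412 to 0.810). Foxe3, a factor of the lens vesicle, had 0.89 TPM in replicate 1 and 1.30 TPM in replicate 2. Crygb had 0 counts in both libraries.

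All 12 head mesenchyme genes lay within 2-fold, with a median log2 ratio of -0.0077. Past that fold were 3.26% of all genes averaging at least 10 counts, so none of 12 is near that share. Foxc2 had 3.88 TPM in replicate 1 and 5.19 TPM in replicate 2 (ratio 0.754, 0.641 to 0.885), while Foxc1 had 3.22 TPM in replicate 1 and 3.21 TPM in replicate 2. Cryab, Foxe3, Foxc2 and Foxc1 were named after their values were seen.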
